A study of Homo sapiens with 11 samples.

Results

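The genes described here act where pyruvate, the end product of glycolysis, either enters the mitochondrion for oxidation or is turned into lactate. They are 10 genes chosen by symbol, and all 10 were found among the 60676 genes counted. PDK1, PDK2, PDK3 and PDK4 encode the pyruvate dehydrogenase kinases. PDHA1 and PDHB encode the alpha and beta subunits of the E1 enzyme of the pyruvate dehydrogenase complex. LDHA and LDHB encode the lactate dehydrogenase subunits. SLC16A1 and SLC16A3 encode the monocarboxylate transporters MCT1 and MCT4. In the GENCODE release 44 annotation of GRCh38 the kinase genes lie on 4 chromosomes, PDK1 at chr2:172555373-172608669 (plus strand), PDK2 at chr17:50094737-50112152 (plus strand), PDK3 at chrX:24465244-24550466 (plus strand) and PDK4 at chr7:95583499-95596516 (minus strand). The E1 subunit genes are PDHA1 at chrX:19343893-19361718 (plus strand) and PDHB at chr3:58427630-58433857 (minus strand). The lactate dehydrogenase genes are LDHA at chr11:18394560-18408425 (plus strand) and LDHB at chr12:21635342-21757857 (minus strand), and the transporter genes SLC16A1 at chr1:112911847-112957593 (minus strand) and SLC16A3 at chr17:82217934-82261129 (plus strand).

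RNA was sequenced from RWPE1, an immortalized, non-tumorigenic line of human prostate epithelial cells grown in serum-free keratinocyte medium. Of the 11 libraries, 3 came from untreated cells in normoxia, called 0 h here, and 3, 3 and 2 came from cells held at 1% O2 for 6, 12 and 24 h. Another 24 h library was not analysed here. HEPES at 10 mM was added to the medium of hypoxic cells, so oxygen and buffer cannot be told apart in any comparison with 0 h. RWPE1 is a single cell line, and the labels do not say whether replicates were separate cultures, so p-values measure the spread between these libraries, which may be technical.

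As background, pyruvate dehydrogenase turns pyruvate into acetyl-CoA inside the mitochondrion and thereby feeds the citric acid cycle. The PDK enzymes switch the complex off by phosphorylating its E1 alpha subunit, and dedicated phosphatases switch it back on. Lactate dehydrogenase interconverts pyruvate and lactate in the cytosol, a reaction that regenerates the NAD+ that glycolysis needs. MCT1 and MCT4 carry lactate together with a proton across the plasma membrane, and MCT4 is known for lactate export from glycolytic cells. PDK1, LDHA and SLC16A3 are textbook targets of the hypoxia-inducible factors (HIFs).

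Each library held between 27496009 and 49488345 counted reads, and 19981 genes passed the filter on low counts, all 10 genes among them. Levels are counts per 1000000 reads (CPM) after TMM scaling, whose factors ran from 0.539 in 24 h replicate 2 to 1.32 at 0 h. The 2 libraries at 24 h were the least alike of any group, with a chi-square per degree of freedom of 288 between their counts against at most 75.1 in the other pairs. Levels between genes are compared only per kilobase (kb) of annotated exon. The basal keratins KRT5 and KRT14 had at least 36788 counts in every library and TP63 at least 1396. KLK3, made by luminal cells, had 0 counts in every library. The keratins differed in direction. Basal KRT14 (5283 against 1203 CPM) and KRT5 (12073 against 7277 CPM) had higher means at 24 h than at 0 h. So did luminal KRT8 (859.6 against 142.7 CPM). Basal KRT15 had a lower mean at 24 h, at 139.5 against 292.4 CPM. Basal TP63 (85.7 against 241.6 CPM) and ITGB4 (272.5 against 357.9 CPM) were lower as well. The part of these shifts in the results below was not tested. Of markers of other cells, PECAM1, CDH5, CD3E, COL1A2 and PDGFRA had at most 5 counts and PTPRC at most 13, whereas COL1A1 had 555 to 2436. In bulk RNA, fewer cells of a kind and less RNA per cell cannot be told apart. Called here means an adjusted p under 0.05 (Benjamini-Hochberg, over the 19981 genes) in the quasi-likelihood test of edgeR. The comparisons with 0 h share the same 3 normoxic libraries.

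PDK1, LDHA, LDHB, SLC16A1 and SLC16A3 were called higher at 6, 12 and 24 h. PDHB and PDK4 were called higher, and PDK3 lower, at 24 h. PDK4 passed the filter on low counts through hypoxic libraries only, so its calls, and counts and medians that include it, are a description. PDK2 and PDHA1 were not called at any time. At 6 h 5 of the 10 genes were called higher and 0 lower, while 25.1% of all tested genes were called higher and 27.7% lower. At 12 h the counts were again 5 and 0, beside 24.2% and 27.1% of all tested genes. At 24 h they were 7 and 1, beside 29.9% and 31.3%. The median log2 fold change of the 10 genes was 0.58, 1.01 and 1.56 at 6, 12 and 24 h, against 0.00, -0.03 and -0.06 over all tested genes. Libraries of the 2 times did not overlap for 5, 8 and 9 of the 10 genes, beside 69.6%, 72.3% and 73% of all tested genes. The response of this cell line was broad, and the share without overlap among the 10 genes at 6 h was below that of all genes.

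**Figure D1:**
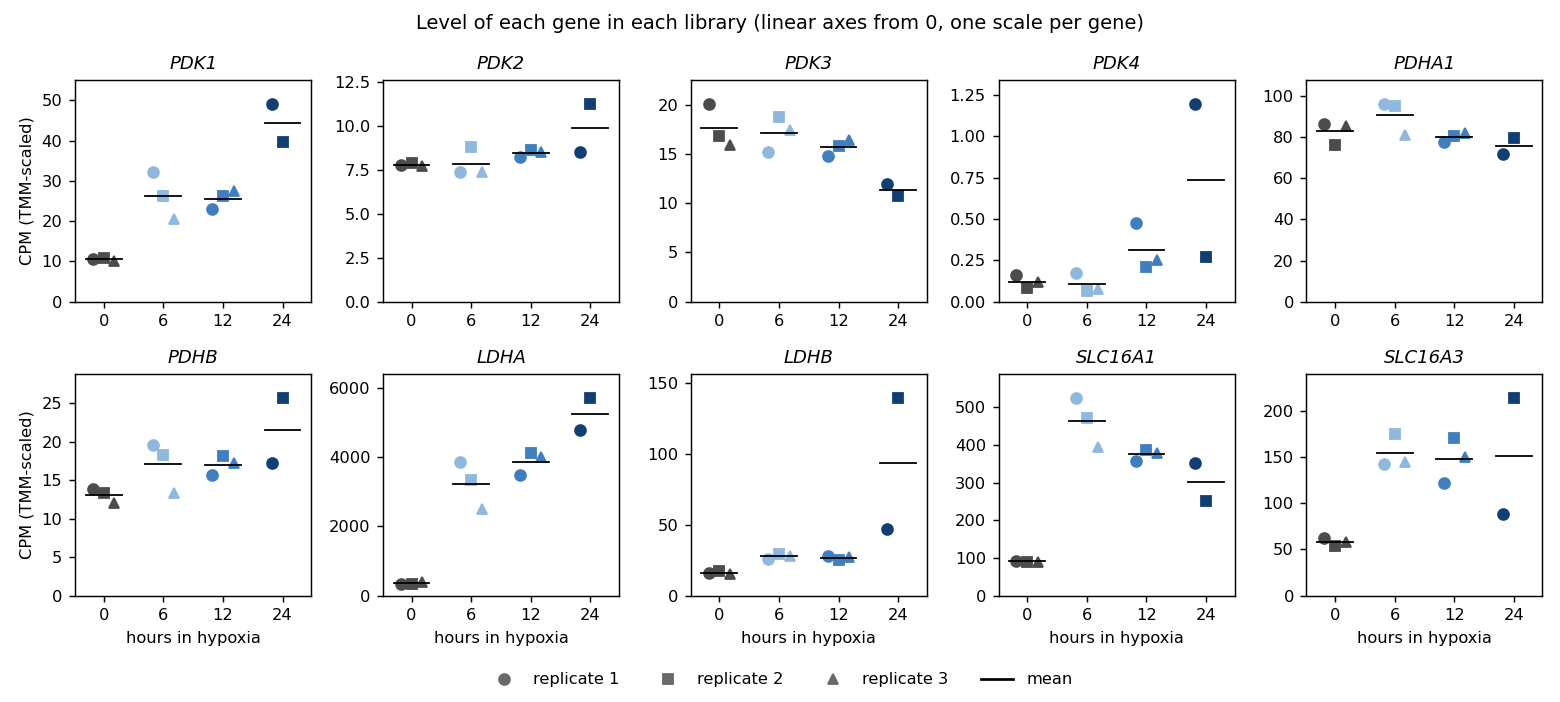
Level of each of the 10 genes in CPM (linear axes from 0) against hours in hypoxia. Each point is 1 library, its shape gives the replicate number and the black line is the mean of the libraries; the 2 libraries at 24 h lie far apart for LDHB, SLC16A3 and PDK4.

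The scale between libraries matters here. With library size alone, the whole set of tested genes shifted by a median of -0.32, -0.50 and -0.97 on the log2 scale at 6, 12 and 24 h. Higher genes then made up 27.6%, 20% and 16.4% of all calls, as against 47.6%, 47.2% and 48.8% with TMM. On that scale 4, 4 and 5 of the 10 genes were called higher and 0, 2 and 3 lower. PDK1, LDHA and SLC16A1 were called higher at all 3 times on both scales. Relative to the shifted median, LDHA stood at 3.16, 3.45 and 3.89 on the log2 scale. The ratios of 2 genes within a library given below do not depend on this choice.

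**Figure D2:**
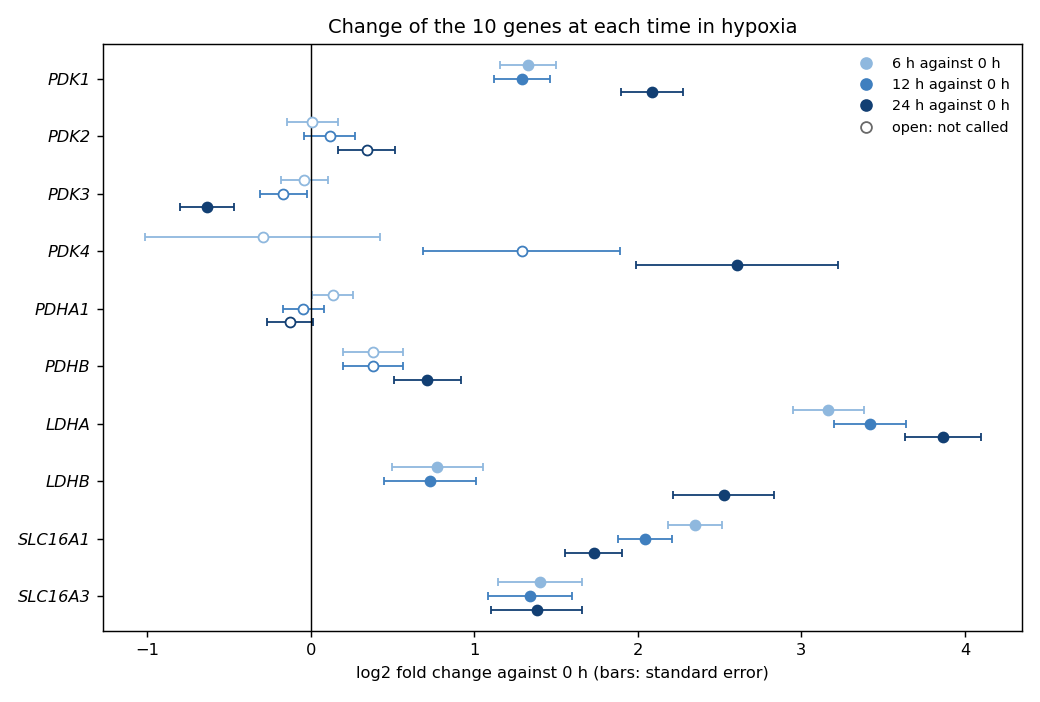
log2 fold change of each gene against 0 h at 6, 12 and 24 h, with its standard error from the edgeR fit; filled points were called and open points were not. LDHA has the highest value of the 10 genes at every time, and SLC16A1 is 2.35 at 6 h and 1.73 at 24 h while PDK1 is 1.33 and 2.08.

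Among the kinases, PDK1 was the one called higher at every time. It stood at 10.5, 10.7 and 10.1 CPM in the 3 normoxic libraries, at 32.2, 26.3 and 20.5 CPM at 6 h, at 23.0, 26.3 and 27.5 CPM at 12 h and at 49.2 and 39.6 CPM at 24 h. No hypoxic library overlapped a normoxic one. The log2 fold change was 1.33 ± 0.17 (SE) at 6 h, 1.29 ± 0.17 at 12 h and 2.08 ± 0.19 at 24 h, which is 2.51-fold, 2.45-fold and 4.24-fold, with adjusted p = 5.38e-05, 8.70e-05 and 3.32e-06 in edgeR. PDK1 rose from 12 to 24 h by a further 0.79 ± 0.19 on the log2 scale (adjusted p = 0.00913), a call that was lost with library size alone (0.38, adjusted p = 0.295), with sample quality weights in limma-voom (0.73, adjusted p = 0.134) and when only the 2 groups were fitted (0.77, adjusted p = 0.0730).

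PDK2 encodes a kinase that many tissues express. It ranged from 7.69 to 7.92 CPM at 0 h, 7.35 to 8.82 CPM at 6 h, 8.22 to 8.62 CPM at 12 h and 8.51 to 11.3 CPM at 24 h. Its log2 fold changes of 0.01 ± 0.16, 0.12 ± 0.16 and 0.34 ± 0.18 were not called, although the libraries at 12 and 24 h all lay above those at 0 h. At 24 h the sign depended on the scale: library size alone gave -0.62 and called it lower. Without 24 h replicate 1 it was called higher at 0.48 (adjusted p = 0.0279). Of the exonic bases of PDK2, 38.6% also lie in SAMD14 on the other strand (2 to 98 counts), and the strand setting of the counting was not given in the sources used here.

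PDK3 moved the other way. It stood at 20.1, 16.8 and 15.9 CPM at 0 h, 15.2, 18.7 and 17.5 CPM at 6 h, 14.8, 15.8 and 16.4 CPM at 12 h and 12.0 and 10.7 CPM at 24 h. The first 3 times overlapped and both 24 h libraries lay below all others. The log2 fold change at 24 h was -0.64 ± 0.17 (adjusted p = 0.00556), after -0.04 ± 0.14 and -0.17 ± 0.14 at 6 and 12 h, and with sample quality weights in limma-voom the 24 h call was lost (adjusted p = 0.239). From 12 to 24 h it was -0.47 ± 0.17 (adjusted p = 0.0531). It was called lower in 5 of 21 alternatives: without 6 h replicate 1 (adjusted p = 0.0478), without 24 h replicate 1 (-0.58, adjusted p = 0.0256), with DESeq2 (adjusted p = 0.0388), with at least 10 counts in every library (adjusted p = 0.0339) and with library size alone (-0.90, adjusted p = 0.0181).

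PDK4, the isoform known for its induction by fasting and fatty acids, was close to the limit of counting. Hypoxic libraries alone brought it past the filter, so its calls and p-values below are a description only. PDK4 had 7, 3 and 5 counts at 0 h, 5, 2 and 4 at 6 h, 14, 7 and 11 at 12 h and 28 and 5 at 24 h. Only 24 h replicate 1 lay far above the rest. The fitted log2 fold change at 24 h was 2.61 ± 0.62 (adjusted p = 0.00287), and without that library it was 1.08 (adjusted p = 0.263). At 6 and 12 h the values of -0.30 ± 0.72 and 1.29 ± 0.60 were not called, although the 12 h value was called without 24 h replicate 1 (adjusted p = 0.0376) or replicate 2 (adjusted p = 0.0329). From 12 to 24 h it was 1.32 ± 0.56 (adjusted p = 0.0953), 1.96 without 24 h replicate 2 (adjusted p = 0.0188) and -0.18 without 24 h replicate 1 (adjusted p = 0.865).

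The ratio of PDK1 to the sum of the other kinases, each as CPM per kb, was formed inside each library. Its log2 value was -1.88, -1.75 and -1.78 at 0 h, -0.06, -0.61 and -0.78 at 6 h, -0.66, -0.52 and -0.46 at 12 h and 0.40 and -0.04 at 24 h. Every hypoxic library lay above every normoxic one. The mean was higher than at 0 h by 1.32, 1.26 and 1.99, or 2.50-fold, 2.39-fold and 3.96-fold, with exact two-sided permutation p = 0.1, 0.1 and 0.2, the smallest that 3 libraries against 3 and 2 against 3 can give. The order of the kinases by level depended on the gene length used. The size of the change in the ratio did too, while its direction did not. With canonical transcript lengths the log2 change was 1.34, 1.39 and 2.44 at 6, 12 and 24 h. Per kb of all annotated exons PDK2 had the highest mean at 0 h (1.43 ± 0.02 SD, n = 3), above PDK3 (1.01 ± 0.13), PDK1 (0.706 ± 0.020) and PDK4 (0.0266 ± 0.0090). Per kb of the canonical transcript, a choice added after the data were seen, PDK3 had the highest (10.1 ± 1.3), since its canonical transcript spans 1741 of 17456 annotated exonic bases.

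Promoter sequence of the PDK1 and PDK2 genes is shown because these paralogs differed in their calls. The letters ACGTG and GCGTG, the core to which HIFs bind, were searched on both strands in the 250 bases upstream of the RefSeq start nearest the canonical one (GRCh38.p14). A CACGTG counts as 2 matches, because both strands read ACGTG. Of all 35116 RefSeq promoters, 43.2% held at least 1 match in such a window and 19.4% at least 2, so a match is common. An entry was found for 9 of the 10 genes, all except SLC16A1, and 7 of these 9 windows held a match. They were 3 of the 4 windows of genes called higher at every time and 4 of the 5 other windows. The printed stretches leave out bases that lie in an exon of the gene, and capitals mark the matches. The PDK1 stretch (chr2:172555840-172556006, plus strand) has none, and its 2 matches lie 17 and 8 bases before the start, in exonic bases not printed here. The PDK2 stretch (chr17:50095101-50095284, plus strand) has 3.
PDK1: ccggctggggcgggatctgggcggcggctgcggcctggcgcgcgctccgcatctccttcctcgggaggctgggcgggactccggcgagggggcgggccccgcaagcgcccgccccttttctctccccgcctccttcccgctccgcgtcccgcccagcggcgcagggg
PDK2: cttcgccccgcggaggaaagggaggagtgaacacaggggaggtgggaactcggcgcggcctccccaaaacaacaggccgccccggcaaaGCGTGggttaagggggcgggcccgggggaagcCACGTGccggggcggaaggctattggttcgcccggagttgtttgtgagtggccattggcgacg

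Of the E1 subunit genes, PDHA1 was called at no time and PDHB at 1. PDHA1, the subunit that the kinases phosphorylate, stood at 86.6, 76.2 and 85.8 CPM at 0 h, 96.5, 95.1 and 81.0 CPM at 6 h, 77.7, 80.7 and 82.4 CPM at 12 h and 72.1 and 79.5 CPM at 24 h. Every hypoxic time overlapped with 0 h. The log2 fold changes were 0.13 ± 0.12, -0.05 ± 0.12 and -0.13 ± 0.14, none of them called, and with library size alone PDHA1 was called lower at 12 h (-0.51) and 24 h (-1.06), where all genes had shifted by -0.50 and -0.97. Of its exonic bases, 19.3% also lie in MAP3K15 on the other strand, which had at most 15 counts.

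PDHB stood at 13.9, 13.4 and 12.0 CPM at 0 h, 19.5, 18.2 and 13.4 CPM at 6 h, 15.7, 18.1 and 17.2 CPM at 12 h and 17.2 and 25.7 CPM at 24 h. The 6 h libraries overlapped with normoxia, and those at 12 and 24 h lay above it. It was called at 24 h, at 0.71 ± 0.20 or 1.64-fold (adjusted p = 0.00902), and not at 6 h (0.38 ± 0.18, adjusted p = 0.0997) or 12 h (0.38 ± 0.18, adjusted p = 0.103). At both earlier times it was called without either 24 h library, with adjusted p = 0.0437 and 0.0412 at 6 h and 0.0453 and 0.0351 at 12 h, and at 6 h also without 6 h replicate 3 (0.53, adjusted p = 0.0283). Sample quality weights in limma-voom also called PDHB at 6 h (adjusted p = 0.00851) and 12 h (adjusted p = 0.000531). Fitting only the 2 groups called it at 12 h (adjusted p = 0.00491). At 24 h the call was lost with the quality weights (0.68, adjusted p = 0.117). Over the fits that left out 1 library, the 24 h value ran from 0.37 to 0.92. The lowest, 0.37, came without 24 h replicate 2, so that time rested on replicate 1 alone. Library size alone turned the 24 h value to -0.27 (adjusted p = 0.244).

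The level of PDK1 relative to PDHA1, its substrate, was formed in the same way. The log2 ratio was -4.62, -4.41 and -4.66 at 0 h, -3.17, -3.44 and -3.57 at 6 h, -3.34, -3.20 and -3.16 at 12 h and -2.13 and -2.59 at 24 h. All hypoxic libraries lay above the normoxic ones, and both 24 h libraries lay above all others. The mean was higher than at 0 h by 1.17, 1.33 and 2.20, or 2.26-fold, 2.52-fold and 4.61-fold (exact two-sided permutation p = 0.1, 0.1 and 0.2, again the smallest possible).

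LDHA, whose subunit favours the conversion of pyruvate to lactate, had the highest level and the largest log2 fold change of the 10 genes at each time. It stood at 350.1, 349.5 and 384.4 CPM at 0 h. At 6 h it reached 3865, 3332 and 2516 CPM, at 12 h 3478, 4118 and 4010 CPM and at 24 h 4794 and 5721 CPM. The lowest hypoxic library was far above the highest normoxic one. The log2 fold change was 3.16 ± 0.22, 3.42 ± 0.22 and 3.86 ± 0.23 at 6, 12 and 24 h, or 8.96-fold, 10.7-fold and 14.6-fold, with edgeR's adjusted p = 6.90e-07, 8.59e-07 and 4.26e-07. Its transcripts took 0.0460% to 0.0494% of the reads of a normoxic library and 0.268% to 0.408% of a hypoxic one. By counts per kb it ranked 530 to 564 among 39620 genes at 0 h and 98 to 237 in hypoxia. The LDHA difference from 12 to 24 h of 0.44 ± 0.22 was not called (adjusted p = 0.149). It was called without 24 h replicate 1 (0.54, adjusted p = 0.0480), and library size alone turned it to -0.03 (adjusted p = 0.918). Its 6 processed pseudogenes held 0.714% to 1.55% of the reads of gene and copies together, and adding them changed no call.

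LDHB, whose subunit is known for the reverse preference, had its highest values at 24 h. It stood at 16.0, 17.3 and 15.4 CPM at 0 h, 25.7, 29.4 and 28.3 CPM at 6 h, 28.3, 24.9 and 27.5 CPM at 12 h and 47.2 and 139.8 CPM at 24 h. The 6 h and 12 h libraries formed one range above normoxia, and the 2 libraries at 24 h were unlike each other. The log2 fold change was 0.77 ± 0.28 at 6 h (adjusted p = 0.0340), 0.73 ± 0.28 at 12 h (adjusted p = 0.0455) and 2.52 ± 0.31 at 24 h (adjusted p = 2.55e-05). The first 2 calls were near the threshold and were lost in 9 and 13 of 21 alternatives, with adjusted p up to 0.0978 and 0.312. Leaving out any single library of 0 or 6 h, or 12 h replicate 2, ended the call at 6 h (0.73 to 0.83), and leaving out any single library of 0, 6 or 12 h ended it at 12 h (0.68 to 0.77). At 24 h the call was kept in all 21, with values from 1.44 with library size alone to 3.05 without 24 h replicate 1, and 1.52 without 24 h replicate 2. LDHB also rose from 12 to 24 h, by 1.80 ± 0.31 (adjusted p = 0.00251), and the value was 0.80 without 24 h replicate 2. This call was lost when only the 2 groups were fitted (1.76, adjusted p = 0.0666). Of the bases of its canonical transcript, 76.5% also lie in a gene model on the same strand that had at most 3 counts. A read that falls in 2 gene models can be left out of both by the counting, and that setting was not given in the sources used here.

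The ratio of LDHA to LDHB was higher in every hypoxic library. On the log2 scale of CPM per kb it was 3.43, 3.32 and 3.63 at 0 h, 6.22, 5.81 and 5.46 at 6 h, 5.93, 6.36 and 6.18 at 12 h and 5.65 and 4.34 at 24 h. Of the hypoxic libraries, 24 h replicate 2 was the nearest to normoxia. The mean was higher than at 0 h by 2.37 at 6 h, 2.69 at 12 h and 1.54 at 24 h, or 5.17-fold, 6.46-fold and 2.90-fold (exact two-sided permutation p = 0.1, 0.1 and 0.2, the smallest possible). Without 24 h replicate 2 the last value was 2.19, and without 24 h replicate 1 it was 0.88. LDHA made up 90.9% to 92.5% of the sum of both levels at 0 h and 95.3% to 98.8% in hypoxia. This share and the level of the ratio carry the limit given above for LDHB, whose part in them was not tested.

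**Figure D3:**
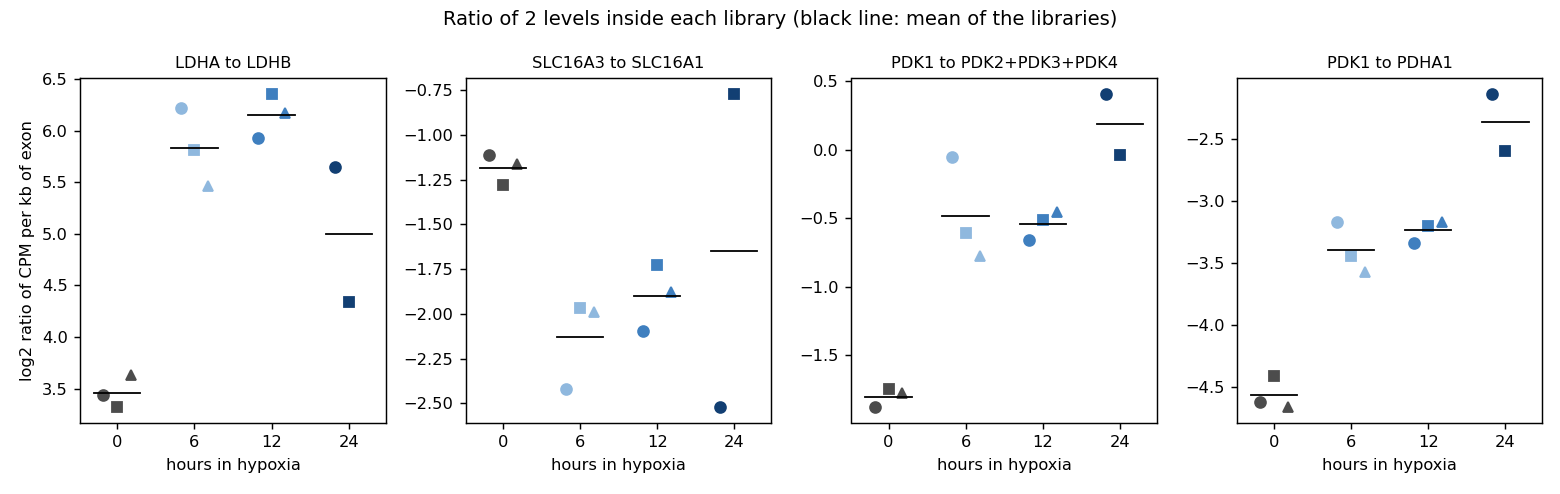
log2 ratio of 2 levels (CPM per kb of exon) inside each library against hours in hypoxia; points are libraries, shapes replicate numbers as in the plot of levels and lines means. Both PDK1 ratios and LDHA to LDHB lie above normoxia in all 8 hypoxic libraries, whereas SLC16A3 to SLC16A1 lies below it at 6 and 12 h and on both sides of it at 24 h.

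The LDHA promoter stretch is the next shown (chr11:18394313-18394559, plus strand), beside that of LDHB (chr12:21657972-21658092, minus strand). LDHA held 5 matches, which include 2 CACGTG, while 7.76% of all promoters had 3 or more. The LDHB window held none, although LDHB too was called higher at every time. The most matches, 6, were in the window of PDHB, which was called higher at 24 h only. PDHA1 and PDK2, called at no time, held 3 each. A link between matches and calls was not tested.
LDHA: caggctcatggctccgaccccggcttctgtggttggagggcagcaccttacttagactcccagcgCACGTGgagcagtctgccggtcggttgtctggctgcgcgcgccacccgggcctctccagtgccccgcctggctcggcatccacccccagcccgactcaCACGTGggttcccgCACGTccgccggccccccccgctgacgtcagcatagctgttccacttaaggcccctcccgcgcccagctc
LDHB: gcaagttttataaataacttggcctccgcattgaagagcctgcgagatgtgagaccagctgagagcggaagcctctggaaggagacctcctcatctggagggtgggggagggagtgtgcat

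SLC16A1 had its highest values at 6 h. It stood at 93.2, 90.4 and 88.8 CPM at 0 h, 525.2, 470.4 and 393.8 CPM at 6 h, 357.8, 386.9 and 378.3 CPM at 12 h and 350.8 and 251.7 CPM at 24 h. Hypoxic libraries all lay above normoxia, those at 12 h all lay below those at 6 h, and those at 24 h below those at 12 h. The log2 fold change was 2.35 ± 0.17, 2.04 ± 0.16 and 1.73 ± 0.18, or 5.10-fold, 4.12-fold and 3.32-fold, with edgeR's adjusted p = 8.76e-07, 3.08e-06 and 6.64e-06. The steps between neighbouring times were not called. They were -0.31 ± 0.16 from 6 to 12 h (adjusted p = 0.291) and -0.31 ± 0.18 from 12 to 24 h (adjusted p = 0.204). Without 24 h replicate 1 the second step was called at -0.60 (adjusted p = 0.00775).

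SLC16A3 stood at 62.6, 54.2 and 57.8 CPM at 0 h, 142.8, 174.7 and 144.2 CPM at 6 h, 122.0, 170.2 and 149.9 CPM at 12 h and 88.9 and 214.4 CPM at 24 h. The hypoxic libraries all lay above normoxia, and the 2 at 24 h spanned the whole range of the others. The log2 fold change was 1.40 ± 0.26, 1.34 ± 0.26 and 1.38 ± 0.28, or 2.64-fold, 2.53-fold and 2.60-fold, with adjusted p = 0.000625, 0.000992 and 0.000967. At 24 h it was 0.59 without 24 h replicate 2 and 1.82 without 24 h replicate 1, and with library size alone the call was lost (0.33, adjusted p = 0.204). From 12 to 24 h the change was 0.04 ± 0.28, and it took opposite signs without either library, at 0.51 and -0.74. CSNK1D, on the other strand and with up to 8757 counts, covers 5.22% of its exonic bases.

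Relative to SLC16A1, SLC16A3 was lower at 6 and 12 h than at 0 h. The log2 ratio of SLC16A3 to SLC16A1 was -1.11, -1.28 and -1.16 at 0 h, -2.42, -1.97 and -1.99 at 6 h, -2.09, -1.73 and -1.88 at 12 h and -2.52 and -0.77 at 24 h. The libraries at 6 and 12 h lay below normoxia, and the 2 at 24 h lay on either side of it. The mean changed by -0.94 at 6 h and -0.71 at 12 h, that is 1.92-fold and 1.64-fold lower (exact two-sided permutation p = 0.1 each, the smallest possible), and by -0.46 at 24 h (exact permutation p = 0.8). Without 24 h replicate 1 the last value turned to 0.41, and without 24 h replicate 2 it was -1.34.

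The SLC16A3 promoter is shown as that of another gene called higher at every time (chr17:82228792-82229041, plus strand). Its 2 matches lie 68 and 55 bases before the start.
SLC16A3: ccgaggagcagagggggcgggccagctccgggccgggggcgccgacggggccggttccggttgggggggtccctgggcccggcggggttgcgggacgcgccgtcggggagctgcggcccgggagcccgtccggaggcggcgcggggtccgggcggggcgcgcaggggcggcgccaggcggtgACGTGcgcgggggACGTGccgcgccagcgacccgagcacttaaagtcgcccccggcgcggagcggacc

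Between neighbouring hypoxic times few of the 10 genes were called. From 6 to 12 h edgeR called 0 of the 10, beside 1.88% of all tested genes called higher and 3.07% lower. At an unadjusted p under 0.05 there was 1, PDK4, and limma-voom and DESeq2 called 0. With sample quality weights SLC16A1 was called lower (-0.31, adjusted p = 0.0406), and without 24 h replicate 2 PDK4 was called higher (1.60, adjusted p = 0.0464). From 12 to 24 h PDK1 and LDHB were called higher and 0 lower, beside 15.1% and 13.3% of all tested genes. Without 24 h replicate 1 this count was 5 higher and 2 lower, and without 24 h replicate 2 it was 3 higher and 1 lower.

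The wider pathway was described with 29 further genes, of which 22 passed the filter. PDHA2, MPC1L, LDHAL6A, LDHAL6B, SLC5A8, SLC5A12 and PKLR did not, with at most 6 counts in any library. Of the 22, 6 were called higher and 6 lower at 6 h, 5 and 5 at 12 h and 6 and 5 at 24 h, shares near those of all tested genes given above. With library size alone the splits were 4 and 10, 2 and 11, and 3 and 14. SLC16A8 is among the lower genes at each time, although it passed the filter through normoxic libraries only and so had to be lower. From 6 to 12 h edgeR called PDP1 lower and 0 genes higher, whereas DESeq2 called 1 higher and 3 lower and library size alone called 0. From 12 to 24 h MPC1, MPC2, ME1 and PKM were called higher and PDP2 and PDPR lower, and these calls went to 0 when only the 2 groups were fitted and to 1 higher and 0 lower with sample quality weights. The median log2 fold change of these genes was -0.27, -0.08 and -0.09 at 6, 12 and 24 h. These medians are a description, since they include SLC16A8 and LDHD, which both passed the filter through normoxic libraries only.

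**Figure D4:**
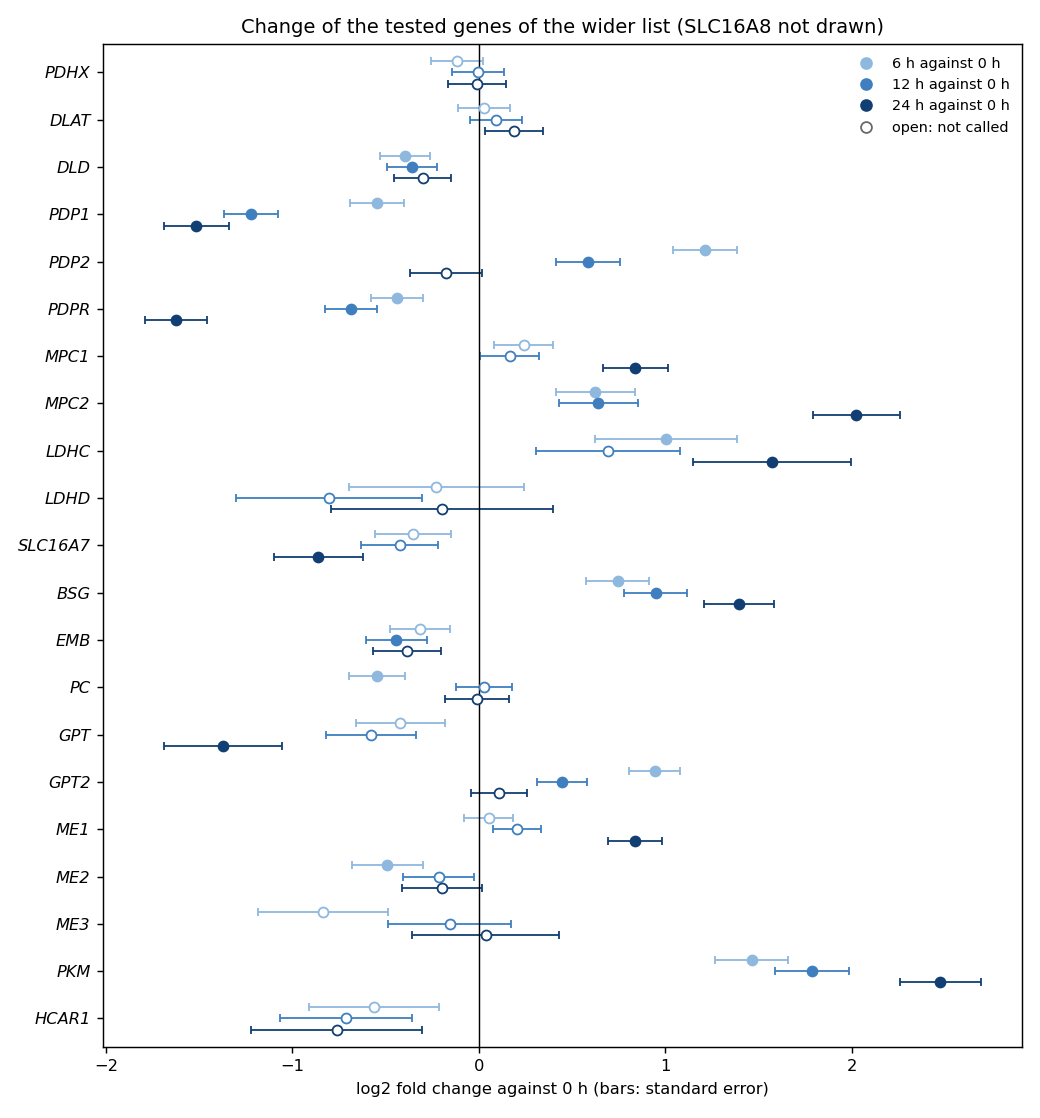
log2 fold change against 0 h, with its standard error, of the tested genes of the wider list except SLC16A8, which had 0 counts at 24 h; filled points were called. PKM, BSG and MPC2 lie above 0 and PDP1 and PDPR below 0 at all 3 times, and DLAT and PDHX stay within 0.19 of 0.

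Of the other parts of the pyruvate dehydrogenase complex, PDHX, the E3-binding protein, and DLAT, the E2 enzyme, were not called, and DLD, the E3 enzyme, was called lower at 6 and 12 h. The phosphatase that reactivates the complex has a catalytic subunit encoded by PDP1 or PDP2. PDP1 ranged from 31.3 to 39.0 CPM at 0 h, 20.5 to 25.7 CPM at 6 h, 14.6 to 14.8 CPM at 12 h and 10.8 to 13.1 CPM at 24 h. These ranges did not overlap, and the log2 fold changes were -0.55 ± 0.14, -1.22 ± 0.15 and -1.52 ± 0.17 (adjusted p = 0.00675, 3.91e-05 and 1.42e-05). PDPR, the regulatory subunit of the phosphatase, stood at 48.8 to 50.1 CPM at 0 h and 16.0 CPM in both 24 h libraries, with log2 fold changes of -0.44 ± 0.14, -0.69 ± 0.14 and -1.63 ± 0.17. PDP2 was called higher at 6 and 12 h and not at 24 h.

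The mitochondrial pyruvate carrier is built from MPC1 and MPC2. MPC2 ranged from 12.7 to 14.8 CPM at 0 h, 19.5 to 23.4 CPM at 6 h, 18.3 to 24.6 CPM at 12 h and 38.1 to 73.7 CPM at 24 h, and its log2 fold changes were 0.62 ± 0.21, 0.64 ± 0.21 and 2.02 ± 0.23 (adjusted p = 0.0250, 0.0234 and 1.57e-05). MPC1 was called higher at 24 h. BSG, the chaperone that brings MCT1 and MCT4 to the membrane, rose from 234.2 to 250.1 CPM at 0 h to 380.9 to 458.8 CPM at 6 h and 502.6 and 779.1 CPM at 24 h, at 0.74 ± 0.17, 0.95 ± 0.17 and 1.40 ± 0.19 on the log2 scale. EMB, the other chaperone, was called lower at 12 h, and the carrier gene SLC16A7 lower at 24 h. SLC16A8, which encodes MCT3, is given as a description only, since its normoxic counts alone brought it past the filter. It had 22, 21 and 16 counts at 0 h, 2, 3 and 7 at 6 h, 1, 2 and 1 at 12 h and 0 in both 24 h libraries. Against a floor of 3 counts per library, it was at least 3.32-fold lower at 24 h, a bound that covers counting error only.

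PKM encodes pyruvate kinase, which makes pyruvate. It ranged from 832.0 to 1010 CPM at 0 h and from 2293 to 2743 CPM at 6 h, and stood at 4196 and 6188 CPM at 24 h. Its log2 fold changes were 1.46 ± 0.20, 1.79 ± 0.20 and 2.48 ± 0.22 (adjusted p = 7.03e-05, 2.40e-05 and 2.79e-06). The counts do not separate its splice forms. GPT2, the mitochondrial alanine transaminase, was called higher at 6 and 12 h, and GPT lower at 24 h, where it had 11 and 12 counts. The malic enzyme genes differed, with ME1 called higher at 24 h, ME2 lower at 6 h and ME3 not called. PC, pyruvate carboxylase, was called lower at 6 h. LDHC was called higher at 6 and 24 h, from 11 to 36 counts per library. At 6 h its libraries overlapped with those at 0 h (edgeR, adjusted p = 0.041). LDHD and HCAR1, the lactate receptor gene, were not called, and LDHD passed the filter through normoxic libraries only.

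The genes whose log2 CPM followed a member most closely over the 11 libraries were found among 9024 tested genes with a mean of at least 10 CPM. They are a description, since all points share the time course and the scaling. For LDHA they were PFKFB4 (r = 0.998), PGK1 (r = 0.996) and MRPS6 (r = 0.995). For PDK1 they were ACAT2 (r = 0.983), GLUD1 (r = 0.982) and ZNF207 (r = 0.980). For SLC16A1 they were NRG1, MAPRE1 and RNF24, each at r = 0.992. For SLC16A3 they were FHOD1 (r = 0.988), FEN1 (r = 0.977) and GSK3A (r = 0.976). Within time points, over deviations from the time means, r ran from 0.529 for ZNF207 with PDK1 to 0.986 for FHOD1 with SLC16A3. The deviations were pooled over the 11 libraries. For SLC16A3 the 24 h libraries, at 88.9 and 214.4 CPM, deviated most and so weigh most in its values.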

How the data were processed

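The starting point was the table of raw read counts per Ensembl gene that the authors deposited, with 60676 genes and 11 libraries of RWPE1 cells and 0 columns left over. Per the labels and the study's methods, total RNA was made into stranded TruSeq libraries in a single batch, and single-end reads were trimmed with Trimmomatic, aligned with STAR to GRCh38 and counted with featureCounts. The strand setting and the handling of reads with several matches were not given in the sources used here.

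Genes were matched by symbol to GENCODE release 44 (GRCh38). filterByExpr (minimum count 10, minimum total 15) kept 19981 genes. edgeR's quasi-likelihood test, with TMM scaling, was run on all 11 libraries together, the 4 times being the groups, and its p-values were adjusted over those genes (Benjamini-Hochberg). The standard error is the absolute log2 fold change over the square root of F. Ratios used CPM per kb of all annotated exons, with exact two-sided permutation tests. Promoters are from RefSeq (GRCh38.p14). Depth was 27496009 to 49488345 counts, and the coefficient of biological variation was 19.6%. The fit was tested on simulated counts drawn with a single spread for all genes and libraries. That test does not cover libraries as unlike as those at 24 h.

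The 10 genes, the wider list and the rules for what is named were chosen with earlier results of these data known. Named are the 10 genes in every comparison, the wider list by call with values for those called in 1 direction at all 3 times, the 3 closest genes by Pearson correlation for PDK1, LDHA, SLC16A1 and SLC16A3, and the promoters of genes called higher at all times beside others. Alternatives were limma-voom with and without sample quality weights, DESeq2, median-of-ratios or library-size scaling, other filters, only the 2 groups compared, the replicate block, pseudogene copies added and each library left out. The tools were edgeR 4.0.16, DESeq2 1.42.0 and limma 3.58.1 under R 4.3.3.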

Additional observations from a re-analysis of the deposited data

Results flagged for a closer look

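PDK1 and LDHB were picked out because their effect against normoxia differed between 12 h and 24 h by a test of that difference. The 24 h level of PDK1 stood above the 12 h level by 0.79 on the log2 scale and that of LDHB by 1.80, by edgeR's quasi-likelihood test over all 11 libraries. Neither difference was called when only the 2 groups were fitted. Both 24 h libraries lay above all 3 at 12 h for each gene. The 24 h libraries differed from each other by far for LDHB, at 47.2 and 139.8 CPM, and less for PDK1, at 49.2 and 39.6 CPM. No time point had the 4 libraries that a check for a single outlying library needs.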

How the results depend on the processing

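Of the refits of a gene's log2 fold change, 972 stayed on the same side of the threshold, 32 lost a call, 29 gained one and 3 changed sign with a call before or after. Among the 972, 42 changed sign without being called in either fit. Library size alone gave 9 of these, namely PDK2 at 6 h (-0.31), 12 h (-0.35), from 6 to 12 h (-0.04) and from 12 to 24 h (-0.26), PDHA1 at 6 h (-0.19), PDHB at 12 h (-0.09) and from 12 to 24 h (-0.18), and LDHA (-0.03) and SLC16A3 (-0.55) from 12 to 24 h. It also reversed PDK2 (-0.62) and PDHB (-0.27) at 24 h, and leaving out 24 h replicate 2 reversed SLC16A3 from 12 to 24 h (-0.74, against 0.51 without 24 h replicate 1). With sample quality weights in limma-voom, 5 of the 10 genes were called at 24 h, 1 from 6 to 12 h and 1 from 12 to 24 h. With only the 2 groups fitted, 0 were called from 12 to 24 h. Leaving out 1 library gave 4 to 6 calls at 6 h, 4 to 7 at 12 h, 7 to 8 at 24 h, 0 to 1 from 6 to 12 h and 2 to 7 from 12 to 24 h. Over the same settings the LDHA to LDHB ratio at 24 h ran from 0.88 to 2.19, SLC16A3 to SLC16A1 from -1.34 to 0.41, PDK1 to PDHA1 from 1.98 to 2.43 and PDK1 to the other kinases from 1.76 to 2.21. With raw counts and no length the last was 1.35 at 12 h and 2.29 at 24 h, and with canonical transcript lengths 1.39 and 2.44, because PDK3 then weighs differently in the sum. Over all tested genes, edgeR called 12235 at 24 h, 989 from 6 to 12 h and 5668 from 12 to 24 h. With sample quality weights these were 6169, 4489 and 1093. Fitting only the 2 groups gave 1876 from 6 to 12 h and 0 from 12 to 24 h. From 6 to 12 h DESeq2 called 1893, no filter gave 1674, the replicate block 510, and leaving out 1 library 61 (12 h replicate 3) to 3649 (24 h replicate 2). From 12 to 24 h leaving out 1 library gave 3068 (12 h replicate 2) to 9491 (24 h replicate 1). The cause of these changes in the number of calls was not tested. The sample titles carry the same replicate numbers at each time, but the 15 same-numbered pairs of libraries had correlations of -0.16 to 0.21 between their deviations from the time means. The numbers were therefore not taken as pairs, and a replicate block gave 5, 6 and 8 called genes at 6, 12 and 24 h, 0 from 6 to 12 h and 2 from 12 to 24 h. Depth limits PDK4 and SLC16A8, whose low counts allow no firm fold change. It also limits other genes of the wider list with low counts, among them LDHC, LDHD, HCAR1, ME3 and GPT.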
